A study of Drosophila melanogaster with 2 samples.

Results

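A set of 10 genes of the Drosophila melanogaster mesoderm and its muscles was examined in chromatin immunoprecipitation followed by sequencing (ChIP-seq) data for the homeodomain transcription factor bsh: the transcription factor genes twi, Mef2 and nau, the fibroblast growth factor (FGF) signalling genes htl and stumps, the myoblast fusion genes sns, kirre and rols, the RNA-binding protein gene how and the muscle protein gene Mlp84B. They were chosen by name, with earlier results of these data known. They are 10 of the 13945 protein-coding genes annotated on chromosome arms 2L, 2R, 3L, 3R, 4 and X. A gene was counted when a region had its summit inside the gene or no more than 2 kb from either end. The samples were whole embryos of mixed sex aged 0 to 24 h, from a transgenic line with GFP joined to the C-terminus of bsh, and an antibody to GFP was used. The 2 samples were biological replicates of 1 group, with no second condition and no control analysed here. What share of the signal an embryo lacking the GFP fusion would give was not tested. In whole embryos, the number of cells in which a site is occupied and the occupancy per cell cannot be told apart.

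In the fly embryo, Twist sets up the mesoderm and acts upstream of Mef2, which drives muscle differentiation. Mesoderm cells spread under the control of the FGF receptor Heartless, and somatic muscles then form when fusion-competent myoblasts, marked by the adhesion protein Sns, fuse with founder cells marked by Kirre. The factor immunoprecipitated here is known for its role in brain neurons rather than in muscle.

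The lists give regions with a summit and a signal value from the authors' peak caller. As the sources do not state the scale of that value, signal was ranked within a list and not compared between lists. The authors' optimal list, filtered on the irreproducible discovery rate (IDR), which scores whether regions keep their rank from one replicate to the other, held 4447 regions, which were the 4447 strongest of the 30000 pooled regions. The same number of strongest regions was taken from each replicate. The lists hold no read numbers, so depth is unknown.

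Of the 10 genes, 8 had an IDR summit, against 24.9% of all protein-coding genes (3470 of 13945). These were twi, Mef2, htl, stumps, sns, kirre, rols and how. The genes without one were nau and Mlp84B. In replicate 1 the same 8 genes had a summit among its strongest regions (24.7% of all genes did), and in replicate 2 there were 7 (26.0% of all genes), htl being the one that dropped out. The 10 genes have a median length of 41.2 kb and all genes 2.17 kb, and the share of genes with an IDR summit was higher in longer classes. It was 18.4% of genes under 5 kb (0 of 1 here), 39.3% of genes from 5 to 20 kb (1 of 2 here), 54.4% from 20 to 50 kb (3 of 3) and 60.9% over 50 kb (4 of 4). No difference from other genes of like length was tested.

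**Figure D1:**
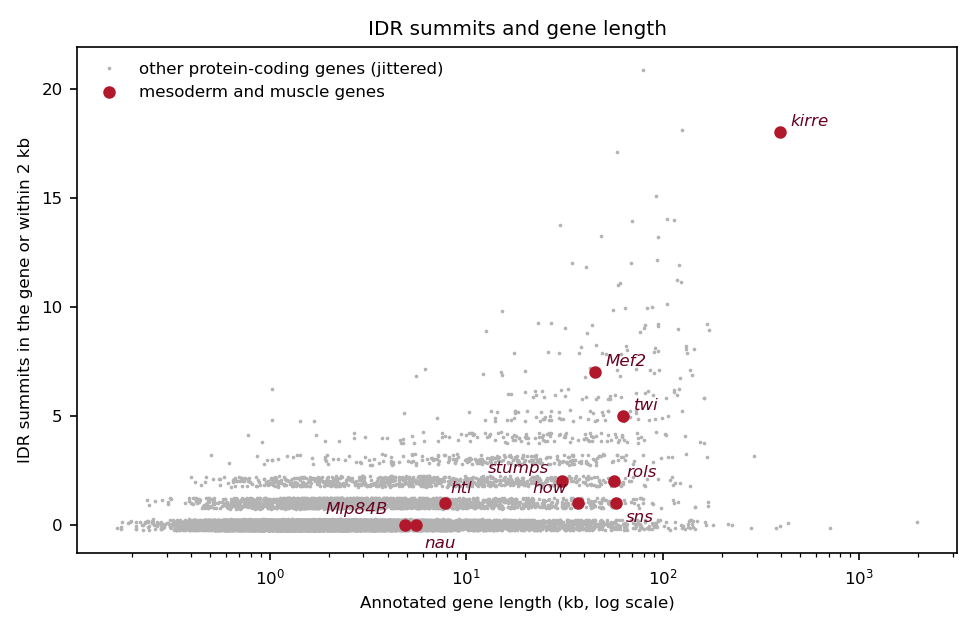
Number of IDR summits in each protein-coding gene or within 2 kb (vertical axis) against annotated gene length in kb (horizontal axis, log scale), with the 10 mesoderm and muscle genes in red and all others in grey. kirre stands at 18 summits and Mef2 at 7, while nau and Mlp84B, the shortest of the 10, stand at 0.

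The 8 genes held 37 IDR summits, of which kirre alone had 18, Mef2 7, twi 5, stumps and rols 2 each, and how, htl and sns 1 each. Their signal ran from 121.1 to 919.6 with a median of 180.8, beside a median of 182.7 over all IDR regions. Of the 37, 18 were among the strongest 2223 of the list. Introns held 27 (73.0%, against 43.0% of all IDR summits), promoters, meaning summits within 500 bp of a protein-coding transcription start site (TSS), held 9 (24.3%, against 36.9%), and a 5′ untranslated region (UTR) held 1. Intergenic sequence held 0 of the 37 and 18.5% of all IDR summits, but the rule that picks summits in or next to genes limits intergenic ones by construction. Picking summits in or next to these mostly long genes also bears on the intron and promoter shares, by an amount that was not tested. kirre alone held 15 of the 27 intron summits. For 17 of the 37 the nearest TSS was the gene's own, and for 20 it was that of another gene. A distance of more than 10 kb separated 19 of them from any TSS of the gene itself.

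Windows of 201 bases centred on summits are printed to show what sequence lies under some of the summits. The windows are those of the strongest IDR summit of how, htl, stumps and rols, and of the 3 kirre summits that hold both homeodomain words. They are from the RefSeq copy of release 6 of the genome (dm6), plus strand, at chr3R:22049201-22049401 (how), chr3R:18049753-18049953 (htl), chr3R:14591138-14591338 (stumps), chr3L:12062963-12063163 (rols), and chrX:2787363-2787563, chrX:3016551-3016751 and chrX:3108966-3109166 (kirre). Capitals mark matches on either strand to TAATTA and CAATTA (homeodomain words), CANNTG (the E-box of bHLH factors such as Twist and Nautilus), TCAAGTG (an NK-class word), the MEF2 site, GAGAGA (the word of the Trl protein), ATCGAT (the core of the DREF word) and ACACTG. Neighbouring or overlapping matches run together, every TCAAGTG also holds an E-box, and CATATG and CAGCTG, counted separately later, are forms of it.
how: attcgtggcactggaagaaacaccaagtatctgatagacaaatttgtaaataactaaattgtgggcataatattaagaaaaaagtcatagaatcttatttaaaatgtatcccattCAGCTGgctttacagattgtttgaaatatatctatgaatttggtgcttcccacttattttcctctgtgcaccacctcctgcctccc
htl: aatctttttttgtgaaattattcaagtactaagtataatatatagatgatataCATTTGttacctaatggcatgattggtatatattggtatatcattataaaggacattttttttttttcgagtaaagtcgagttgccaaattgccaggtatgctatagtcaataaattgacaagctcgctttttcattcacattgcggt
stumps: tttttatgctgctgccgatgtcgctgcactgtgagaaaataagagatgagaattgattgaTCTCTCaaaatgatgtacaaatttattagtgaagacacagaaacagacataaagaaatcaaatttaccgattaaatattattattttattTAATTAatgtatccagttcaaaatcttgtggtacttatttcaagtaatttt
rols: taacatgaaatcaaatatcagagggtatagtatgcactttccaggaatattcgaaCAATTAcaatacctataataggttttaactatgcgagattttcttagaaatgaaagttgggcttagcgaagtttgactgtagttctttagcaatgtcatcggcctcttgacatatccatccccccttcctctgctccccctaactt
kirre at 2787463: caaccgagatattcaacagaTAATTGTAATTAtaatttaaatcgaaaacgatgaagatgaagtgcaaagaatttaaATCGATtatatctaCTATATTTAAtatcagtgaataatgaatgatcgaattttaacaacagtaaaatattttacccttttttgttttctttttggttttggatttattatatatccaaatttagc
kirre at 3016651: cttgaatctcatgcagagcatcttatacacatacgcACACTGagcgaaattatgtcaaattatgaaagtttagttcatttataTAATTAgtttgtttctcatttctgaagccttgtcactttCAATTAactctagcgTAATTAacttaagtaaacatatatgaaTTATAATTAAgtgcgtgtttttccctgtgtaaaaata
kirre at 3109066: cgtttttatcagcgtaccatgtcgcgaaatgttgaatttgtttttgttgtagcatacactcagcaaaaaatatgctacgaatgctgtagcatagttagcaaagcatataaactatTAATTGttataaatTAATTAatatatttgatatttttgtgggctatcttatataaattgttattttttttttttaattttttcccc

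The how window held 1 E-box, of the form CAGCTG, 15 to 20 bases to the right of the summit. The htl window held 1 E-box to the left, and neither window held TAATTA or CAATTA. The stumps window held TAATTA 50 to 55 bases to the right of the summit and GAGAGA on the minus strand to its left. The kirre window at 2787463 held CAATTA on the minus strand directly beside TAATTA, a MEF2 site that ends 1 base before the summit, and ATCGAT. The window at 3016651 held 3 copies of TAATTA, the last of them overlapping a MEF2 site, and that at 3109066 held TAATTA and CAATTA within 34 bases of the summit. A match is a description of the letters and not a measured binding site. The kirre windows were picked for their words, and of the windows at all 37 summits 11 held at least 1 homeodomain word.

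Among the transcription factor genes, twi, which encodes the bHLH factor of mesoderm fate, had 5 IDR summits with signal from 138.5 to 220.0, but none lay near its coding sequence. The annotation gives twi (2R 22985374 to 23048325, plus strand) 3 TSSs. One transcript starts at 22985374, and the others start at 23046108 and 23046322, next to the coding span of 23046483 to 23048073. All 5 summits fell in the long intron of the first transcript, from 11123 to 29924 bp from the closest twi TSS. They also lay inside other genes, annotated on the opposite strand. The summit at 22998243 (signal 194.0) was in CG9896, 641 bp from its TSS. Those at 23016184 (138.5), 23018439 (220.0), 23022733 (148.0) and 23034985 (175.3) were in CG42741. The strongest, at 23018439, ranked 2741 in replicate 1 and 1192 in replicate 2, with signal 93.9 and 119.0 in the replicates' own lists. With only the coding span and 2 kb either side counted, twi had 0 IDR summits.

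Mef2, which encodes the MADS-box factor of muscle differentiation (2R 9913496 to 9958858, minus strand, 3 TSSs), had 7 IDR summits, or 1.42 per 10 kb of gene and flanks, beside 0.418 over genes of 20 to 50 kb. Of the 706 genes in that length class, 19 had at least 7. The strongest, with signal 919.6 at 9959904, was the highest at any of the 10 genes and ranked 42 in the pooled list, 42 in replicate 1 (signal 537.6) and 62 in replicate 2 (signal 385.9). It lay outside Mef2, 1046 bp upstream of its TSS and 172 bp from the TSS of Pdrg1, within the neighbouring gene Pal1. The next strongest, at 9954788, had a signal of 211.2, with 119.4 in replicate 1 and 105.6 in replicate 2, and was in an intron 4070 bp from the upstream TSS. Replicate ranks for that summit, 1794 and 1496, were close to the pooled rank of 1733.

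Mef2 also had summits close to its own start sites. One lay 135 bp inside the upstream TSS at 9958858 (signal 138.4, ranks 3873 and 3079 in replicates 1 and 2). Another lay 224 bp from the downstream TSS at 9929615 (132.5, ranks 5663 and 2558), so it was outside the strongest 4447 in replicate 1. The remaining intronic summits had signal 155.0 at 9949680, 130.4 at 9935972 and 121.1 at 9956260. The last ranked 3714 in replicate 1 and 7332 in replicate 2, the lowest place of the 37 in replicate 2. The Mef2 coding span, 9916458 to 9921663, and its 2 kb flanks held 0 IDR summits.

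The remaining factor gene, nau, encodes the fly member of the MyoD family (3R 23712814 to 23718357, minus strand). It had 0 summits in the IDR, pooled and both replicate lists, although 59.8% of all genes had at least 1 in the pooled list of 30000. The nearest IDR summit, with signal 134.3, was 4630 bp upstream of the nau TSS and 344 bp from that of CG10365.

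**Figure D2:**
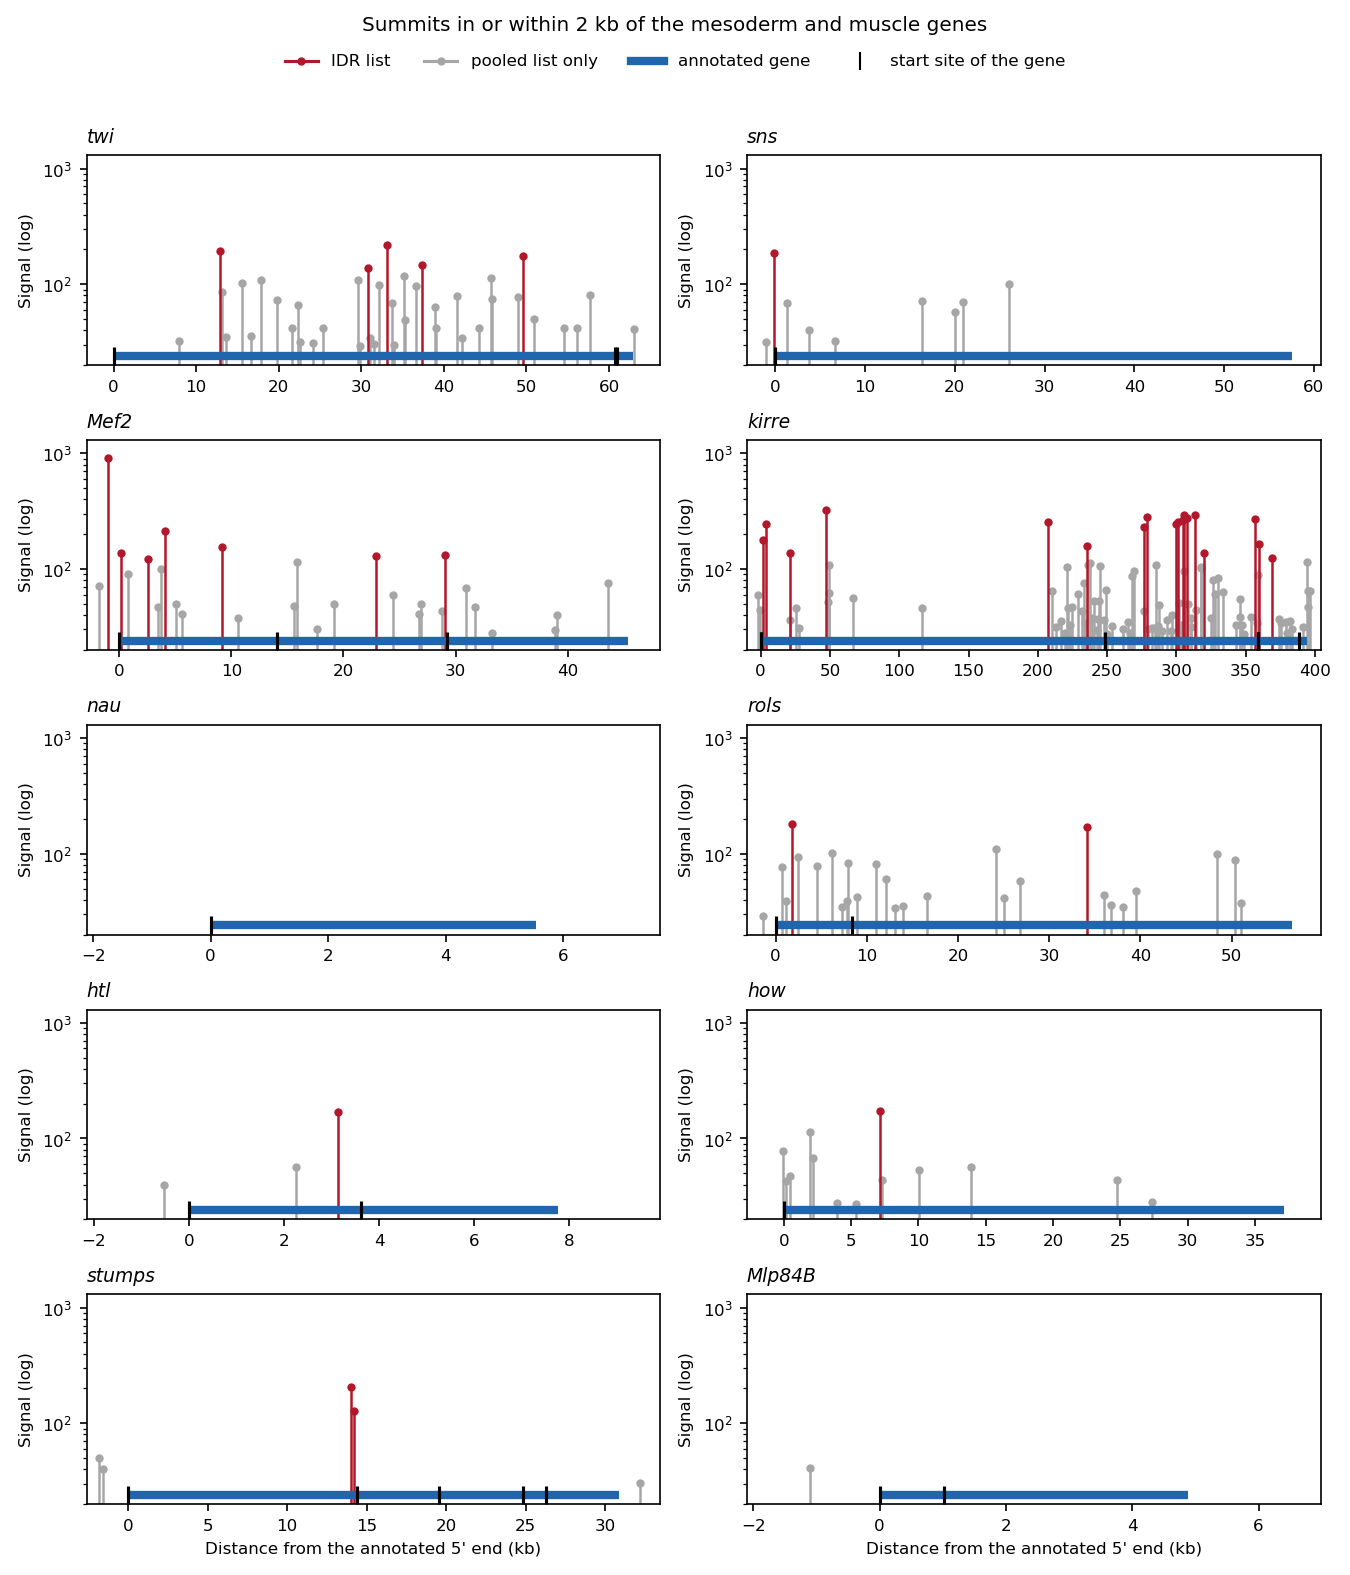
Signal of each summit (vertical axis, log scale) against distance from the annotated 5′ end of the gene in kb (horizontal axis, in the direction of transcription), with IDR summits in red, other pooled summits in grey, the gene as a blue bar and its TSSs as black ticks. The twi summits lie far from the TSS ticks at its coding end, those of stumps stand just before an internal TSS, and nau shows no summit.

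The FGF signalling genes had summits at internal promoters. htl encodes an FGF receptor (3R 18045216 to 18052984, minus strand), and its 1 IDR summit, at 18049853 with signal 168.6, was 487 bp upstream of the downstream TSS at 18049366. The upstream TSS at 18052984 had no IDR summit. In each replicate the region was split into a pair of summits on either side of the pooled one. In replicate 1 they lay at 18049718 (signal 120.4, rank 1771) and 18049922 (96.5, rank 2612). In replicate 2 they lay at 18049701 (54.2, rank 4928) and 18049904 (36.0, rank 9555). Their positions repeated to within 20 bp, but their ranks did not, and replicate 2 had no htl summit among its strongest 4447.

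stumps encodes the adaptor that couples FGF receptors to their signalling pathway (3R 14577217 to 14608079, plus strand, 5 TSSs). Its IDR summits, at 14591238 (signal 204.8) and 14591439 (126.5), were 382 and 181 bp upstream of the second TSS at 14591620, and their regions overlapped. The same pair appeared in each replicate. The stronger summit ranked 1692 in replicate 1 (signal 123.4) and 2530 in replicate 2 (signal 79.2), and the weaker one 2854 (91.6) and 6409 (46.4). No other TSS of stumps had an IDR summit within 500 bp. Below the IDR list, the strongest pooled summit counted for stumps had a signal of 50.2 and rank 15448, and lay in the neighbouring gene CG7987.

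Among the fusion genes, sns, which encodes the immunoglobulin-domain receptor of fusion-competent myoblasts (2R 8798489 to 8856091, plus strand, 57.6 kb), had a single IDR summit. It lay at 8798405, 84 bp upstream of its only TSS, with signal 186.3. It ranked 3759 in replicate 1 (signal 77.3) and 1474 in replicate 2 (signal 106.7), and its summit moved by 35 and 8 bp. The next pooled summit, in an intron 26059 bp from the TSS, had a signal of 99.7 and rank 5962.

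kirre encodes the related receptor of founder cells and spans 394 kb (X 2740384 to 3134532, plus strand). It had 18 IDR summits, with a median signal of 249.6 and a range of 124.6 to 324.7. Of the 307 genes over 50 kb, 3 had at least 18, kirre included, but per 10 kb it had 0.452 IDR summits, beside 0.293 over that length class. The kirre gene overlaps 22 other protein-coding genes, and its coding span, 3129278 to 3132422, lies at its far 3′ end. No IDR summit lay in that span or within 2 kb of it.

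Only 5 of the 18 kirre summits had a kirre TSS as the nearest. The strongest, at 2787463 (signal 324.7), was in CG32795 and 1859 bp from its TSS. It ranked 686 in replicate 1 (signal 201.9) and 927 in replicate 2 (signal 134.6). A summit at 2744273 (243.6) was 197 bp from a TSS of Syx4, which encodes a syntaxin, and one at 2947867 (256.8) was 167 bp from that of CG3603. A further 7 summits stood within 20.4 kb of one another, from 3039936 to 3060362, in an intron of kirre and at least 39188 bp from any kirre TSS. Their signal ran from 137.7 to 293.9, and their ranks ran from 704 to 3113 in replicate 1 and from 830 to 4960 in replicate 2. Close to the kirre TSSs at 3099550 and 3099582 were summits at 3097222 (signal 270.8, 2328 bp before the first) and at 3100099 (164.4, in a 5′ UTR 517 bp after the other). The 160 kb between the summits at 2787463 and 2947867, which hold 17 other protein-coding genes, had 0 IDR summits. That stretch held 5 summits in the pooled list, 7 in replicate 1 and 5 in replicate 2.

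rols encodes the scaffold protein that links the founder-cell receptor to the fusion machinery (3L 12008225 to 12064859, minus strand). Of its IDR summits, the one at 12063063 (signal 180.8) was in an intron 1796 bp downstream of its 5′-most TSS and ranked 2357 in replicate 1 (signal 102.0) and 2466 in replicate 2 (80.5). The other, at 12030728 (171.0), was in an intron 25746 bp from a rols TSS and 1829 bp from that of CG43993, with ranks 3552 and 1925. Just below the IDR list rols had pooled summits with signal 109.1 and 101.9, at ranks 5168 and 5740.

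how encodes a STAR-family RNA-binding protein of muscle and tendon cells (3R 22042191 to 22079321, plus strand). Its IDR summit, at 22049301 with signal 173.8, was in an intron 7110 bp from its only TSS and ranked 2755 in replicate 1 (signal 93.5) and 2527 in replicate 2 (79.3). The how promoter itself, with a pooled summit 70 bp from the TSS, had a signal of 77.8 and rank 8655, outside the IDR list. An intronic summit 1940 bp from the TSS, with signal 114.1, ranked 4807, also outside it.

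Mlp84B encodes a muscle LIM protein of the sarcomere Z-disc (3R 7112850 to 7117732, minus strand) and lies within the longer gene Alh. It had 0 IDR summits. The pooled list held 1 summit, of signal 40.9 and rank 19705, 1103 bp upstream of its first TSS. Replicate 1 held 2, with signal 23.2 (rank 21680) and 19.8 (rank 26015), and replicate 2 held 0.

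Ordered by the signal of their strongest IDR region, the genes ran Mef2 (919.6), kirre (324.7), twi (220.0), stumps (204.8), sns (186.3), rols (180.8), how (173.8) and htl (168.6). The Mef2 summit in this order lay outside Mef2, in Pal1, and the strongest summit inside Mef2 had a signal of 211.2. Those of kirre and twi lay in introns that also fall inside CG32795 and CG42741. By strongest region, Mef2 ranked above kirre, and kirre above the other 6, in both replicates. Among the other 6, the replicate ranks of twi and stumps overlapped, as did those of stumps and sns, sns and rols, and how and htl, so these neighbours did not differ beyond the spread between replicates. Those of rols (2357 and 2466) and how (2755 and 2527) did not overlap, but both overlapped those of twi, stumps and sns. With 2 values per gene, no order among these 6 genes is resolved. Of all 3470 genes with an IDR summit, 1.79% had a strongest signal at least as high as that of Mef2, 26.9% as that of kirre and 67.2% as that of htl. Of the 37 IDR regions, 27 overlapped a region among the strongest 4447 of both replicates, and 74.8% of all 4447 IDR regions did. Replicate 1 alone had such a region for 34 of the 37 (87.9% of all IDR regions) and replicate 2 alone for 30 (85.6%). The 27 and the 30 include the weaker stumps region, matched through the replicate regions of the stronger one. Its own replicate 2 summit ranked 6409. Summits were displaced from the pooled summit by a median of 5 bp in replicate 1 and 18 bp in replicate 2, beside 7 and 21 bp over all IDR regions.

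**Figure D3:**
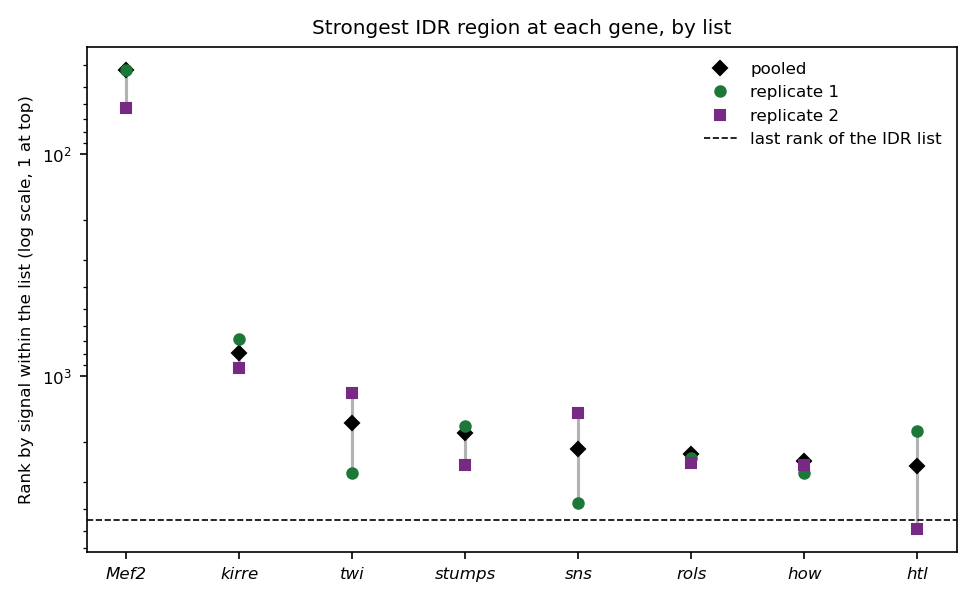
Rank by signal (vertical axis, log scale, rank 1 at the top) of the strongest IDR region at each of the 8 genes in the pooled list (black), replicate 1 (green) and replicate 2 (purple), with a dashed line at rank 4447. Mef2, whose strongest region lies outside the gene in Pal1, is between ranks 42 and 62, and kirre is between 686 and 927. The ranks of the other 6 overlap with their neighbours', save rols with how. In replicate 2 htl, at 4928, falls below the line.

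How many of the genes counted depended on the part of the gene used. With the gene body alone 7 of 10 had an IDR summit (11.6% of all genes), sns being lost because its summit lies 84 bp before the gene. With only the gene of the nearest TSS counted there were 7 (16.9% of all genes), twi being lost. Within 2 kb of one of the gene's own TSSs there were 6 (19.3% of all genes), without twi and how. With the coding span and 2 kb either side there were 5 (20.4% of all genes): htl, stumps, sns, rols and how. These last 2 settings were chosen after seeing the data. Within 5 kb of the gene all 10 had one (36.2% of all genes), and with only the strongest 2223 regions 5 had one (15.1% of all genes): twi, Mef2, stumps, sns and kirre.

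The 10 words were counted within 100 bp of the 37 summits, on either strand, beside their share of all 4447 IDR summits. TAATTA was in 7 windows (18.9%, against 13.6%), 5 of them in kirre, 1 in Mef2 and 1 in stumps. CAATTA was also in 7 (18.9%, against 15.9%), in kirre, Mef2, twi and rols. At least 1 of these homeodomain words was in 11 windows (29.7%, against 26.8%), and both were in 3 (8.11%, against 2.81%), the 3 kirre windows printed above. An E-box was in 21 windows (56.8%, against 60.0%), and its form CATATG in 4 (10.8%, against 7.67%), at twi and kirre. The MEF2 site was in 3 windows (8.11%, against 9.71%), in twi and kirre, and none of the 7 Mef2 windows held it. GAGAGA was in 9 (24.3%, against 16.3%), ACACTG in 7 (18.9%, against 14.6%), ATCGAT in 3 (8.11%, against 4.45%), CAGCTG in 2 (5.41%, against 7.51%) and TCAAGTG in 1 (2.7%, against 3.6%). Which of the shares was higher changed with the window for 5 of the words. Within 200 bp, CAATTA was in 24.3% of the windows against 28.2% of all, while the E-box (89.2% against 86.4%), CAGCTG (21.6% against 18.4%) and the MEF2 site (16.2% against 15.7%) were in the larger share at the genes described. Within 50 bp, ACACTG was in 0 of 37 windows against 5.24%, and the E-box (35.1% against 34.2%), CAGCTG (5.41% against 3.06%) and the MEF2 site (5.41% against 5.17%) turned as well. Within 100 bp, the window under the strongest Mef2 summit held none of the 10 words. With 18 of the 37 windows in 1 gene the windows are not independent, and no difference was tested. G and C made up a median of 35.3% of the bases, beside 37.3% over all IDR windows.

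A wider list of 79 other mesoderm and muscle genes was counted in the same way. An IDR summit was found at 30 (38.0%, Wilson 95% interval 28.1 to 49.0%), against 24.9% of all genes. In replicate 1 there were 27 (24.7% of all genes) and in replicate 2 there were 29 (26.0%). The genes of the list had a median length of 8.86 kb, and 39.3% of all genes from 5 to 20 kb had an IDR summit. By role, the median length ran from 3.83 kb (early regulators) to 28.4 kb (FGF genes), with 17.4 kb for the attachment genes. The interval covers counting error only and treats the genes as independent draws, although they were picked by name. No comparison with all genes was tested.

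Of the early mesoderm and muscle regulators, 6 of 17 had one (35.3%, to be set, like each role below, against 24.9% of all genes). The highest were Poxm, a paired-domain factor gene (signal 499.9, promoter), and zfh1, a zinc finger and homeodomain factor gene (336.5, intron). Next came the heart factor gene tin (322.2, promoter). The mesoderm repressor gene sna was among the 11 without one. Of the FGF ligand genes and the other FGF receptor gene, only bnl had a summit (149.6, 70 bp from its TSS), while ths and pyr, which encode the ligands of Heartless, and btl had none. Of the muscle identity factor genes, 3 of 14 had one (21.4%). They were the LIM-homeodomain genes tup (333.9, nearest to CG10602) and ap (124.8), and the T-box gene org-1 (294.3).

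Of the other fusion genes, 6 of 12 had an IDR summit, led by mbc, which encodes an exchange factor for Rac (385.0), blow (200.5) and WASp, an actin regulator gene (157.8). The kirre paralogue rst, which lies inside kirre, had none within 2 kb in the IDR list, though it had one among the strongest regions of replicate 2, and hbs, the paralogue of sns, had none in either. Of the sarcomere genes, 6 of 22 had one (27.3%). The highest were Zasp52, which encodes a Z-disc protein (335.2), sls, which encodes a titin-like protein (275.1), and the nesprin gene Msp300 (252.0). Mlp60A, the closest relative of Mlp84B, had none. Of the attachment genes 8 of 10 had one (80.0%), and Ilk and parvin had none. The highest were the integrin subunit genes if (634.9, nearest to goe) and mew (366.6) and the tendon gene Lrt (320.5).

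**Figure D4:**
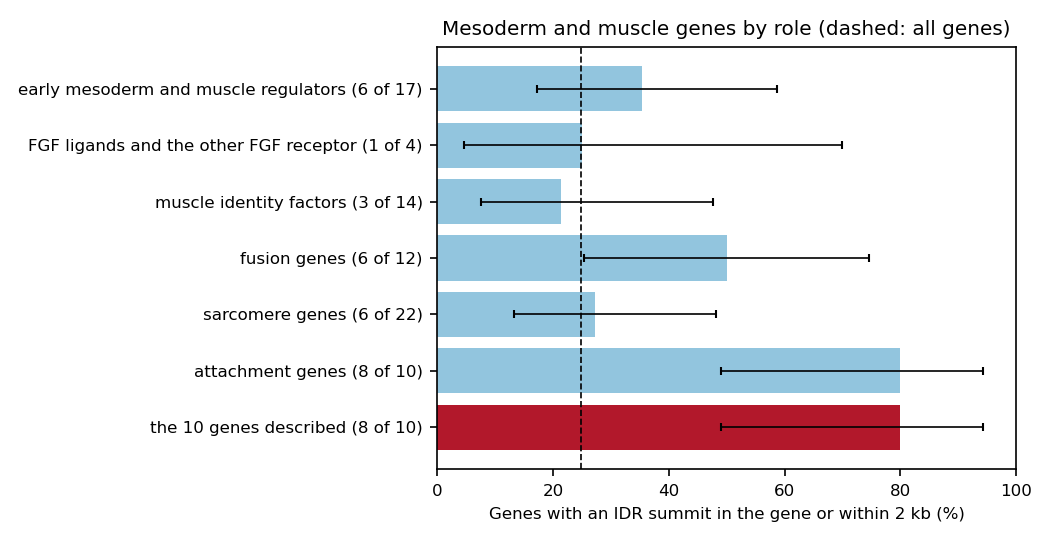
Share of genes with an IDR summit in the gene or within 2 kb (horizontal axis, %) by role, with counts beside each name, bars for the share, whiskers for Wilson 95% intervals and a dashed line at 24.9%, the share of all protein-coding genes. The attachment genes and the 10 genes described are at 80%, and muscle identity factor genes are at 21.4%. The whiskers cover counting error only and treat genes picked by name as independent draws. The line is not matched for gene length, and no share was tested against it.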

How the data were processed

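Per the samples' file records, the authors deposited a relaxed list of regions per replicate and one from pooled reads, all of which include background, and an IDR list made from these. The sources used here do not give the aligner, the peak caller or the IDR cut-off. The signal value of each region is the authors' own and its scale is unstated. The −log10 q-value deposited for each region reached a ceiling and was not used for ranking, and the summit offset is the authors' column. Only the dm6 lists were used. Genes were from Ensembl release 115, and 99.8% of its start codons read ATG in the RefSeq genome sequence, with 0 regions past a chromosome end. Summits were assigned to genes with pandas 2.3.3 and numpy 2.4.6 under Python 3.11.15 (intervals with scipy 1.17.1, plots with matplotlib 3.10.9), by code tested on simulated summits. A replicate region sharing 1 bp or more with a pooled region was its match, the strongest being taken. Location was assigned in the order promoter, coding exon, 5′ UTR, 3′ UTR, intron, intergenic. With 1 group and 2 replicates, no test was made. The strongest regions of replicate 2 included 13 mitochondrial ones, which left fewer on the arms.

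The genes named are the 10 members, the 3 with the highest IDR signal in each role of the wider list, and genes whose TSS was nearest to a member's summit. Genes named for having no summit, and those in which a summit lies, were added after their values were seen. The members and lists were chosen with earlier results of these data known. All symbols matched, 2 of them through an older symbol. Alternatives tried were the gene window, the assignment, the list, the promoter width, the word window and each replicate alone.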

Additional observations from a re-analysis of the deposited data

How the results depend on the processing

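The main counts (genes described, their summits, wider-list genes and promoter summits) stayed within 1.5 times their value except as follows; the causes were not tested, beyond the fewer regions or genes that a setting holds by construction. Among the strongest 2223 IDR regions, 5 of the 10 genes (15.1% of all genes), 18 summits and 17 wider-list genes were counted. With the coding span and 2 kb, 5 of the 10 genes were counted (20.4% of all genes). Without kirre 19 summits were left. With the gene body alone 17 wider-list genes were counted (11.6% of all genes), and with all pooled regions 59 (59.8% of all genes). Without replicate 1, 7 of the 10 genes (26.0% of all genes), 37 summits and 29 wider-list genes were counted. Without replicate 2, 8 of the 10 genes (24.7% of all genes), 45 summits and 27 wider-list genes were counted. Counting 5 kb either side, all 10 genes had an IDR summit, as did 36.2% of all genes. Promoters of 200 bp held 6 of the 37 summits (16.2%, against 23.1% of all IDR summits). Promoters of 1000 bp held 12 (32.4%, against 46.1%). Single values also moved, among them 12 counts of words under other windows, which hold more or fewer words by construction. The replicate rank of the region strongest in the pooled list passed 1.5 times its pooled value at twi (1631 to 2741) and sns (2146 to 3759) in replicate 1 alone. It did so at htl (2548 to 4928) in replicate 2 alone, and at no other gene. At twi another region, at 22998243, was the strongest in replicate 1, with rank 1722. Chosen after seeing the data were the coding span, the distance to a gene's own TSSs and the count without kirre. With depth unknown, signal cannot be compared across lists. No paired analysis was possible because the 2 samples form 1 group.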

Other observations

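IDR summits lay between 2 and 5 kb beyond Mef2, Mlp84B, how and nau. Downstream of Mef2, 2451 bp past its 3′ end, a summit at the promoter of Etf-QO had a signal of 734.3 and ranked 130 in replicate 1 and 71 in replicate 2. With the summit at Pdrg1 and Pal1, signal 919.6, both ends of Mef2 were thus flanked by a neighbour's promoter among the strongest 87 pooled regions, while the strongest summit inside Mef2 ranked 1733.

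Downstream of Mlp84B, in an intron of Alh, summits with signal 182.2 and 417.3 stood 2797 and 3885 bp past its 3′ end. The stronger ranked 476 in replicate 1 and 477 in replicate 2, and lay 541 bp from an Alh TSS. Upstream of how, an intergenic summit 2541 bp from its TSS had a signal of 147.4, ranked 2949 in replicate 1 and 4871 in replicate 2, and had how as its nearest gene.

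At the 3′ end of kirre, a pooled summit in the promoter of N, 392 bp from its TSS, had a signal of 114.7 and rank 4759, outside the IDR list.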
